A study of Mus musculus with 8 samples.

Results

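The genes described here encode the subunits of oxidative phosphorylation, the mitochondrial machinery that makes most cellular ATP. They were chosen by symbol: every probe whose platform gene symbol begins with Nduf followed by a, b, c, s or v, is Sdha to Sdhd, begins with Uqcr, with Cox and a digit from 4 to 8, or with Atp5. The rule found 107 probes of 85 genes, among 25697 probes and 16593 gene symbols in all. By complex these were 53 probes for complex I, 6 for complex II, 9 for complex III, 21 for complex IV and 18 for complex V. The symbol rule also takes in 5 complex I assembly factors (Ndufaf1, Ndufaf3, Ndufaf4, Ndufaf5 and Ndufaf7), the pseudogene Ndufs5-ps and Cox7a2l, a factor of respiratory supercomplexes. Without these, 97 probes of 78 subunit genes remained.

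The samples were RNA recovered with ELAVL1 from LbetaT2 cells, a mouse pituitary line of the gonadotrope lineage that was derived from tumours driven by a viral oncogene. The 4 GnRH arrays came from cells given gonadotropin-releasing hormone for 30 min and the 4 vehicle arrays from cells given vehicle for 30 min, both after 16 h without serum. No genotype or allele was named in the labels for either group, and no hormone dose. Lysates were cleared with beads and IgG, ELAVL1 was pulled down with 5 µg of its antibody, the beads were washed 6 times, and the recovered RNA was hybridised to Illumina mouse bead arrays. Neither input RNA nor a pull-down with another antibody was analysed here. A signal therefore measures how much of a transcript was recovered. Binding to ELAVL1, abundance and carry-over on the beads without ELAVL1 cannot be told apart. Nor can fewer cells of a type be told apart from less RNA per cell.

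Complexes I to IV form the electron transport chain. Complex I (NADH dehydrogenase) and complex II (succinate dehydrogenase) pass electrons to ubiquinone, complex III (ubiquinol-cytochrome c reductase) passes them to cytochrome c, and complex IV (cytochrome c oxidase) passes them to oxygen. Complex V, the ATP synthase, uses the proton gradient that the chain builds. Nearly all of their subunits are encoded in the nucleus and translated in the cytosol, and the remaining ones, encoded in mitochondrial DNA, are outside the symbol rule. ELAVL1, or HuR, is known for binding messenger RNAs through runs rich in U or in A and U.

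Each array had 10802 to 11663 probes with a detection p below 0.05, called above background from here on, and a median raw signal of 33.4 to 42.1. Vehicle replicate 4 had the lowest median signal of the 8 arrays. The hormone response was present in these arrays: Egr1, an immediate early transcription factor, had a mean normalized log2 signal of 13.16 ± 0.06 on the GnRH arrays and 9.36 ± 0.38 on the vehicle arrays (SD, n = 4 each). The difference was 3.80 ± 0.19 (SE), with a limma adjusted p of 2.57e-06. Of the 8 gonadotrope markers looked at, 6 had a probe above background on at least 4 arrays, with Gnrhr at a mean raw signal of 12791 and Cga at 3727, while Lhb and Fshb were above background on no array. The summed raw signal of the gonadotrope markers ran from 17123 to 19547 on the GnRH arrays and from 11174 to 17745 on the vehicle arrays. Gnrhr, the largest part of that sum, had the same normalized value on all 8 arrays. It had the highest mean raw signal of all probes, and quantile normalization gives equal values to equal ranks. That sameness therefore does not show that its recovery was unchanged. None of the 8 tested probes of gonadotrope markers was called. At an unadjusted p below 0.05, 3 were higher, 1 of Cga at 0.47 ± 0.16 and 2 of Chga, a secretory granule protein, at 0.60 ± 0.19 and 0.74 ± 0.27 (SE), while the third Chga probe stood at -0.02 ± 0.24. Their part in the results on oxidative phosphorylation genes was not tested. Markers of other pituitary lineages (6 genes on the array), stroma (5 genes) and blood (4 genes) were above background on no array. All 3 endothelial markers were tested, and their summed raw signal ran from 1722 to 2721 on the GnRH arrays and from 1408 to 2474 on the vehicle arrays. Kdr was near background, above it on 6 arrays at a mean raw signal of 43.1. Cdh5 stood at 609 and the Pecam1 probes at 676 and 690. Precision is limited by having 4 arrays a group. Whether the 4 samples of a group were grown as separate cultures is not stated in the labels, and the p-values cover only the spread among these samples, which may be technical.

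No tested oxidative phosphorylation probe was found to differ in the ELAVL1 pull-down between GnRH and vehicle beyond the spread between arrays. The test took in probes above background on 4 or more of the 8 arrays, which kept 87 of the 107 probes, from 72 of the 85 genes. Each of these 87 was above background on at least 1 array of each group. None was called higher, where 0.265% of all 11318 tested probes were (limma, Benjamini-Hochberg adjusted p below 0.05). None was called lower, where 0.0% were. At a share of 0.265% a set of 87 probes may well hold no called probe, so this count does not set the members apart. None reached an unadjusted p below 0.05, where 2.09% of all tested probes did so as higher and 0.813% as lower, 2.91% in either direction. In no tested member did the 4 GnRH values lie wholly above the 4 vehicle values (1.53% of all tested probes) or wholly below them (0.618%). The lowest unadjusted p in the limma fit was 0.0774, for Ndufs5-ps, and every member's adjusted p was 1.00. An estimate that misses the threshold does not show that a transcript was unchanged, so intervals are given with the values.

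The changes were small on either side of 0. Of the 87 tested probes 49 had a change above 0 and 38 below it, and the share above 0, 56.3%, stood beside 48.1% over all tested probes. The median log2 change was 0.03, beside -0.01 over all tested probes. The extremes were Uqcrc1 at -0.36 and Cox8a at 0.45, fitted GnRH over vehicle ratios of 0.781 and 1.36. The 95% confidence intervals of 86 of the 87 probes lay within a log2 change of 1 in either direction, and those of 29 lay within 0.5. The widest bounds reached -0.93 for an Sdhb probe and 1.07 for Ndufc2, so a change of 2-fold was outside the interval of every tested member but Ndufc2.

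**Figure D1:**
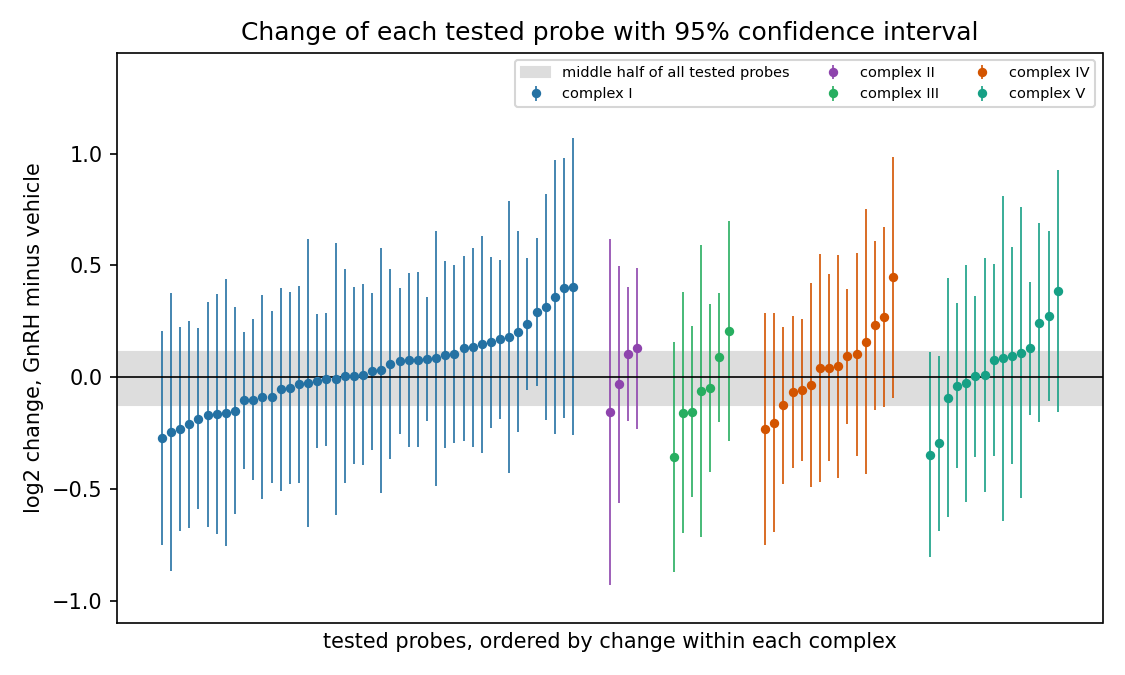
The plot of changes gives, for each of the 87 tested probes, the log2 change of GnRH minus vehicle (vertical axis) with its 95% confidence interval as a line, ordered within complexes I to V. The grey band is the interquartile range of all 11318 tested probes; 46 of the 87 points lie in it, and every interval includes 0.

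By complex the median log2 change was 0.02 for complex I (46 tested probes), 0.04 for complex II (4 probes), -0.06 for complex III (7 probes), 0.04 for complex IV (15 probes) and 0.08 for complex V (15 probes). Each of these was smaller in size than the array-to-array spread of the complex. That spread is the within-group SD, over arrays, of the median deviation of the probes from their group means. It was 0.13 for complex I, 0.22 for complex II, 0.20 for complex III, 0.11 for complex IV and 0.19 for complex V. It describes single arrays and is not a standard error of the median change. The number of probes above and below 0 was 26 and 20 in complex I, 2 and 2 in complex II, 2 and 5 in complex III, 9 and 6 in complex IV, and 10 and 5 in complex V. The sign of a complex's median was not stable: leaving out 1 array at a time took it from -0.03 to 0.07 for complex I, -0.04 to 0.15 for complex II, -0.22 to 0.01 for complex III, -0.03 to 0.11 for complex IV and -0.05 to 0.11 for complex V. Without between-array normalization the median of all tested probes was 0.11, and those of the complexes stood above their normalized values.

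The transcripts were widely present in the pull-down. Of the 107 probes 81 were above background on all 8 arrays, a share of 75.7%, where 35.9% of all probes were. Above background on no array were 16 of the 107 probes, where 47.2% of all probes were. The share above background on all 8 arrays was 81.1% in complex I, 3 of 6 probes in complex II, 77.8% in complex III, 61.9% in complex IV and 83.3% in complex V. These shares are descriptions and were not tested. The median member probe stood at the 80.6 percentile of mean normalized signal over all probes, 22 members stood in the top 10%, 6 in the top 5% and 2 in the top 1%. Probes bind with different strength, so signals of different probes do not order their transcripts by amount.

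**Figure D2:**
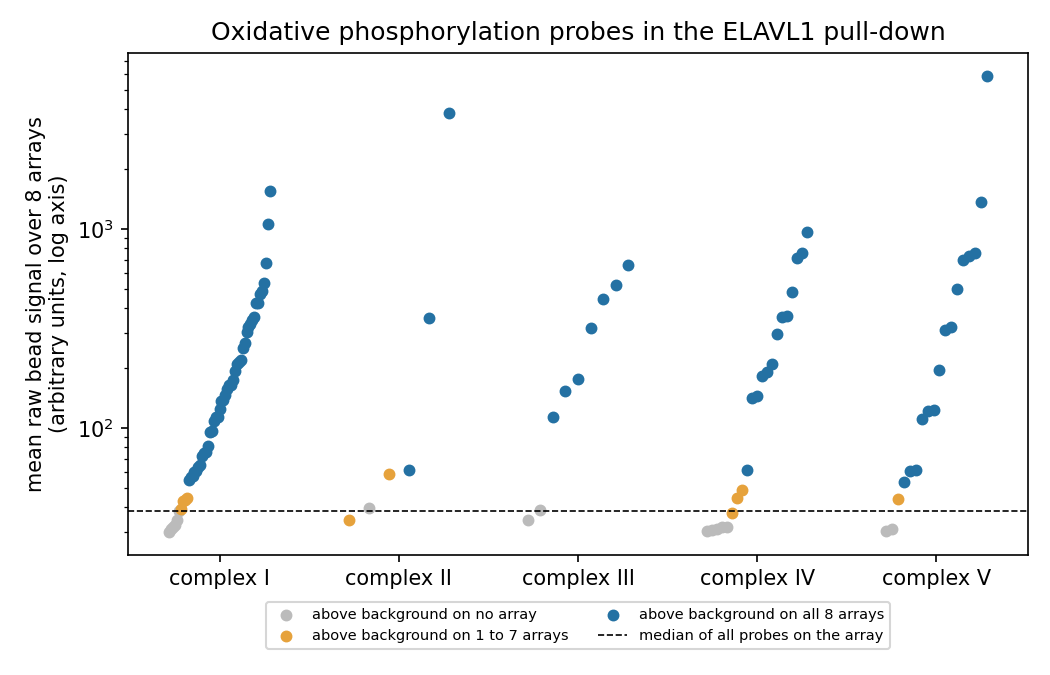
The plot of levels gives the mean raw bead signal over 8 arrays (arbitrary units, log axis) of all 107 probes, ordered by signal within each complex, with colour for the number of arrays above background and a dashed line at the median of all probes, 38.4. Each complex spans probes at background and probes far above it, and the brightest of all are single probes of complexes V (5882) and II (3837).

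The 6 probes in the top 5% belonged to Atp5g3, Sdhc, Ndufa4, Atp5b, Ndufc2 and Cox8a. Atp5g3, 1 of 3 genes for the proton-carrying c ring of the ATP synthase, had normalized log2 signals of 12.52, 12.38, 12.69 and 12.36 on the GnRH arrays 1 to 4, against 12.38, 12.93, 12.35 and 12.45 on the vehicle arrays 1 to 4. Vehicle replicate 2 was the highest of the 8 and the groups overlapped, with a change of -0.04 ± 0.17 (SE). The genes Atp5g1 and Atp5g2 encode the same mature c subunit, and stood at 0.00 ± 0.16 and 0.13 ± 0.13. Sdhc, a membrane anchor of complex II, had 11.94, 12.02, 12.04 and 11.77 on the GnRH arrays, against 11.71, 12.02, 11.80 and 11.83 on the vehicle arrays. Its groups overlapped, with a change of 0.10 ± 0.14. A second Sdhc probe was above background on 1 of 8 arrays, at a mean raw signal of 34.5, so the 2 probes of this gene disagree on its presence.

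There were 10 genes with no probe above background on any array, and their levels are known only as not well above background. Among them were Ndufs1, the large iron-sulfur subunit of complex I, whose raw signal lay between 27.7 and 32.4, and Uqcrfs1, the Rieske iron-sulfur protein of complex III, between 32.3 and 44.4. The others were Ndufab1, the acyl carrier subunit of complex I, Ndufb11, Uqcrq, Atp5k and 4 isoforms of complex IV subunits. Ndufb11 had 2 probes on the array, and the other 9 genes 1 each. Probes of the same gene can differ in detection. For each of Sdhc, Sdhb and Atp5j 1 probe was above background on at most 1 array and another on all 8. Which of them reads its transcript was not tested, so a single probe at background does not show that a transcript was absent. A further 3 genes, Atp5o, Cox6a2 and Ndufaf7, were above background on 1 to 3 arrays and were not tested. For Atp5o, the stalk protein that links the ATP synthase head to its membrane part, GnRH replicate 3 had the highest raw signal, 64.1, and the other 7 arrays lay between 33.9 and 55.1.

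Several complex IV subunits have a ubiquitous and a tissue-restricted copy, and the signals of these copies differed in detection. The ubiquitous copies Cox4i1, Cox6a1, Cox6b1, Cox7a2 and Cox8a were above background on all 8 arrays with all 7 of their probes. Cox7b, the common copy of Cox7b2, was dimmer, above background on 6 arrays with raw signals of 40.9 to 56.9. Of the 7 tissue-restricted copies, Cox8b and Cox6a2 (heart and skeletal muscle), Cox4i2 (lung), Cox7b2 and Cox8c (testis) were not tested, being above background on no array or, for Cox6a2, on 1. Cox8a had raw signals of 1434, 1347, 754 and 1142 on the GnRH arrays, against 905, 724, 669 and 739 on the vehicle arrays, while Cox8b had 26.7, 33.2, 31.9 and 28.6 on the GnRH arrays, against 33.2, 34.6, 31.6 and 29.2 on the vehicle arrays. Every Cox8b value lay at background. Cox7a1, the heart and muscle copy of Cox7a2, was above background on 6 arrays with raw signals of 37.1 to 51.2. Cox6b2, known from testis, had 1 probe at background on every array and 1 above it on all 8, between 43.5 and 77.2, so its presence rests on 1 of its 2 probes.

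**Figure D3:**
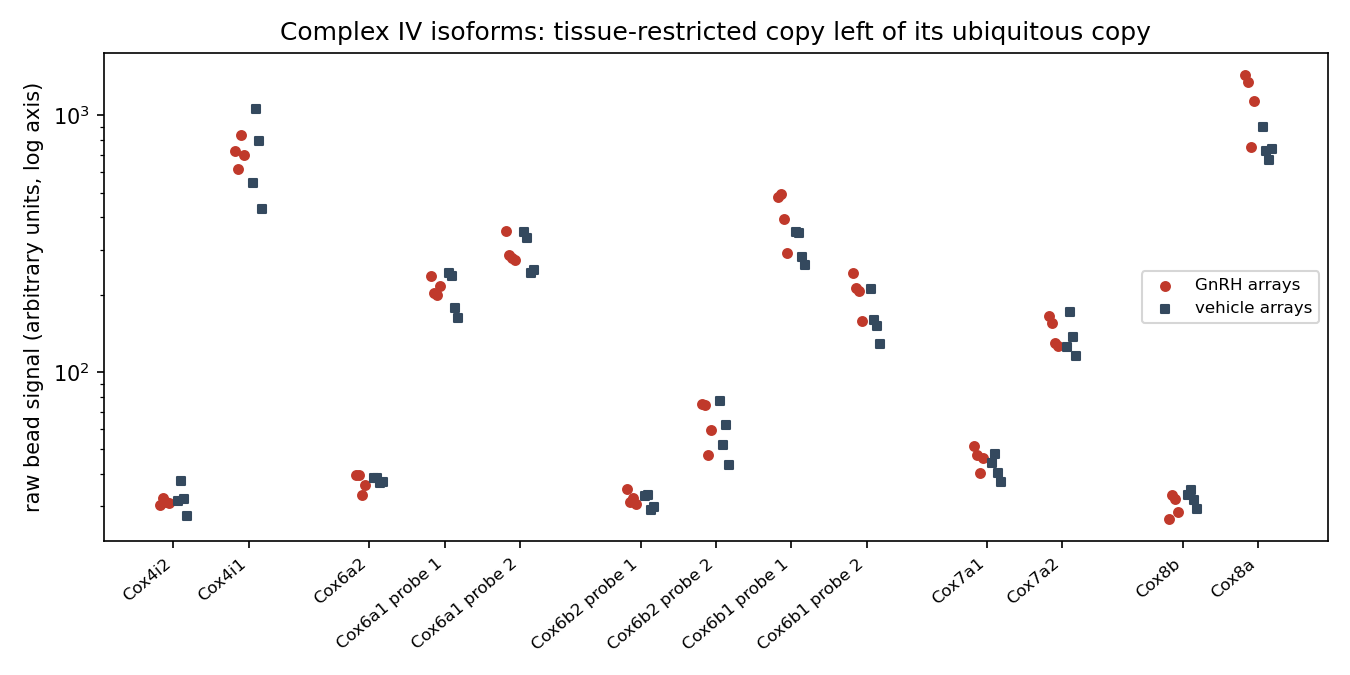
The plot of isoforms gives the raw bead signal (arbitrary units, log axis) of each probe on the 4 GnRH arrays (circles) and the 4 vehicle arrays (squares), for 5 pairs, with the tissue-restricted copy left of its ubiquitous copy. The ubiquitous copies plotted lie above 100 on every array, and of the tissue-restricted probes plotted none exceeds 77.2. Cox7b and Cox7b2 are not plotted.

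Nuclear genes of the respiratory chain are known for promoters bound by nuclear respiratory factor 1, whose sites have a core of GCGCA, then any base, then GCGC. In the RefSeq promoter table (GRCm38.p6), which held 70 of the 85 genes, this core, on either strand and with overlapping matches counted, lay within the 250 bases before a start site in 11 genes, or 15.7%. Over all 27025 genes of the table the share was 4.23%. No share was computed over all tested genes, so these shares are not matched for expression or base content. A match is a run of letters and not a shown site, and no binding was measured. The stretches around the matches of 4 members are shown to set a ubiquitous isoform, a central stalk subunit, a membrane anchor and a gene with no probe above background beside each other, with the matched core in capitals.
Cox6a1: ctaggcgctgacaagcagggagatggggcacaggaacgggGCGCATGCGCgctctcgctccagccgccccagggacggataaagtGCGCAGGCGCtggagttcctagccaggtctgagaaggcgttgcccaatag
Atp5c1: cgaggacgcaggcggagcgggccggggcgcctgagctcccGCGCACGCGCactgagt
Sdhd: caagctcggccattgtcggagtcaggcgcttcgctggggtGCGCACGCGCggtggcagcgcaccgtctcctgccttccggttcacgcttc
Atp5k: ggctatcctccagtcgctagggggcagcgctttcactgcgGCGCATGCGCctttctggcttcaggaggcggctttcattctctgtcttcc
These lie on the minus strand of GRCm38.p6 at chr5:115349026-115349160 for Cox6a1, chr2:10080433-10080489 for Atp5c1, chr9:50603879-50603968 for Sdhd and chr5:108434400-108434489 for Atp5k, each upstream of the gene's annotated start. Cox6a1 holds the core at 2 places and the other 3 genes at 1. Cox6a1, Atp5c1 and Sdhd were above background on all 8 arrays, and the single Atp5k probe on none.

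In complex I the core subunits, which carry the flavin and the iron-sulfur clusters, had 2 changes above 0 and 3 below among 5 tested. Ndufv1, which binds NADH, had normalized log2 signals of 8.60, 8.79, 9.21 and 8.97 on the GnRH arrays, against 8.50, 9.70, 9.09 and 8.94 on the vehicle arrays. The vehicle values spanned the GnRH values, with replicate 1 the lowest of the 8 and replicate 2 the highest, and the change was -0.17 ± 0.24 (SE). The neighbouring flavoprotein subunit Ndufv2 stood at 0.06 ± 0.19, and the iron-sulfur or quinone-site subunits Ndufs3, Ndufs7 and Ndufs8 at 0.03 ± 0.25, -0.25 ± 0.28 and -0.09 ± 0.21. In each of Ndufv1, Ndufs7 and Ndufs8 vehicle replicate 2 was the highest array, and for Ndufs3 it was the second highest after GnRH replicate 3.

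The accessory subunits of complex I, which surround the core, had 21 changes above 0 and 14 below among 35 tested probes. Ndufc2, a membrane arm subunit, had 10.38, 10.09, 9.95 and 10.20 on the GnRH arrays, against 10.45, 9.34, 8.98 and 10.23 on the vehicle arrays. Vehicle replicates 2 and 3 lay below all other arrays and vehicle replicate 1 above them. The change was 0.41 ± 0.30 (95% interval -0.26 to 1.07). Ndufa5 stood at 0.40 ± 0.26 with 1 probe and 0.13 ± 0.19 with the other. For a low-signal Ndufb6 probe all 4 GnRH arrays were above background and 1 of 4 vehicle arrays was, with values of 4.91, 4.91, 4.73 and 4.73 on the GnRH arrays, against 4.76, 4.58, 4.45 and 4.54 on the vehicle arrays. Its groups overlapped through vehicle replicate 1, the change was 0.24 ± 0.13, and a brighter Ndufb6 probe stood at 0.08 ± 0.18. Ndufa4, named for complex I but now assigned to complex IV, stood at -0.01 ± 0.27.

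Ndufs5-ps had the lowest p among all members, with 7.07, 7.28, 6.81 and 6.96 on the GnRH arrays, against 6.79, 6.69, 6.57 and 6.90 on the vehicle arrays. The groups overlapped through vehicle replicate 4 and GnRH replicate 3, and the change was 0.29 ± 0.15 (95% interval -0.04 to 0.62). It is annotated as a pseudogene of Ndufs5, and whether the probe reads the pseudogene or its parent cannot be told from the signal. The RefSeq gene table lists 14 further pseudogenes named for 9 of the member genes, Atp5c1, Atp5k, Atp5l, Atp5pb, Cox5b, Cox7c, Ndufa12, Ndufab1 and Uqcrh. The probes of these genes carry the same uncertainty. Only symbols made of a member symbol and the ending -ps, with or without digits, were counted. Pseudogenes under other names were not looked for. Among the assembly factors, which help to build complex I without staying in it, the 5 tested probes ran from -0.16 for a probe of Ndufaf5 to 0.08 for Ndufaf4.

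Complex II is the only respiratory complex encoded wholly in the nucleus and is shared with the citric acid cycle. Its iron-sulfur subunit Sdhb had 5.18, 5.10, 5.73 and 5.48 on the GnRH arrays, against 5.05, 6.06, 5.41 and 5.09 on the vehicle arrays, for the probe above background on all 8. Vehicle replicate 2 and GnRH replicate 3 were the highest arrays of their groups, and the change was -0.03 ± 0.24. A second tested Sdhb probe stood at -0.15 ± 0.35, and the third was above background on no array. Sdhd, the other membrane anchor, had 8.58, 8.71, 8.30 and 8.24 on the GnRH arrays, against 8.28, 8.37, 8.09 and 8.56 on the vehicle arrays, a change of 0.13 ± 0.16 with overlapping groups. Sdha is not among the probes analysed here.

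Of complex III, Uqcrc1, a core protein of the matrix side, had the lowest fitted change of all members. It had 6.07, 6.56, 6.55 and 6.27 on the GnRH arrays, against 6.04, 7.10, 6.91 and 6.82 on the vehicle arrays. Vehicle replicates 2, 3 and 4 lay above every GnRH array and vehicle replicate 1 below them all, and the change was -0.36 ± 0.23 (95% interval -0.87 to 0.16). Its partner Uqcrc2 stood at 0.09 ± 0.13. The accessory subunit Uqcrb stood at 0.21 ± 0.22, and the 2 probes of Uqcr10, another accessory subunit, at -0.15 ± 0.17 and -0.05 ± 0.17.

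Complex IV held the highest fitted change, that of Cox8a, the ubiquitous copy of subunit 8. Its normalized log2 signals were 10.18, 10.32, 9.55 and 10.25 on the GnRH arrays, against 9.74, 9.29, 9.28 and 10.19 on the vehicle arrays. GnRH replicate 3 lay among the lower vehicle arrays and vehicle replicate 4 among the higher GnRH arrays. The change was 0.45 ± 0.24 (95% interval -0.09 to 0.98). Cox6b1, on the intermembrane side, had 2 probes close to each other, at 0.27 ± 0.18 and 0.23 ± 0.17. Cox4i1 stood at -0.03 ± 0.21, Cox5a at 0.04 ± 0.23 and Cox5b at 0.04 ± 0.19, and the 2 Cox6a1 probes at -0.13 ± 0.16 and -0.06 ± 0.14. Cox7a2 stood at -0.07 ± 0.15, and of the tissue-restricted copies Cox7a1 stood at 0.09 ± 0.14 and the tested Cox6b2 probe at 0.05 ± 0.23. The supercomplex factor Cox7a2l stood at -0.20 ± 0.22 and Cox7b, above background on 6 arrays, at -0.23 ± 0.23.

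In the ATP synthase the tested subunits of the F1 head, where ATP is made, and of the central stalk had 2 changes above 0 and 3 below. Atp5a1, the alpha subunit, had 8.58, 8.67, 8.95 and 8.81 on the GnRH arrays, against 8.59, 9.18, 9.27 and 9.15 on the vehicle arrays. As for Uqcrc1, vehicle replicates 2, 3 and 4 lay above every GnRH array and vehicle replicate 1 did not, and the change was -0.30 ± 0.18 (95% interval -0.69 to 0.10). Atp5b, the catalytic beta subunit, had 10.02, 10.22, 10.78 and 10.34 on the GnRH arrays, against 9.83, 10.88, 10.49 and 10.25 on the vehicle arrays, and stood at -0.03 ± 0.24 with overlapping groups. The central stalk subunits stood at 0.24 ± 0.20 for Atp5c1, 0.11 ± 0.29 for Atp5d and -0.35 ± 0.21 for Atp5e. Atp5mpl, a small membrane subunit, had 8.18, 8.48, 8.63 and 8.17 on the GnRH arrays, against 8.21, 8.34, 7.78 and 8.04 on the vehicle arrays, a change of 0.27 ± 0.17. For Atp5j, a peripheral stalk subunit, 1 probe stood at 0.39 ± 0.24 and another at 0.08 ± 0.19, and the third was above background on no array.

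Probes of the same gene gave a check on single values. Of the 85 genes 16 had more than 1 probe, and in 4 of these some probes were tested and others were not. Among the 12 genes with more than 1 tested probe the changes had the same sign in 8 and opposite signs in 4. The largest gap within a gene was 0.39, in Ndufs4, an accessory subunit whose 4 probes ran from -0.21 to 0.18. That gap is close to the largest changes of any member.

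The tested members moved together from array to array within each group. On GnRH replicate 3, 68 of 87 probes (78.2%) lay above the mean of their own group, and on GnRH replicates 1, 2 and 4 the shares were 47.1%, 44.8% and 31.0%. On vehicle replicate 2 the share was 70.1%, and on vehicle replicates 1, 3 and 4 it was 48.3%, 24.1% and 48.3%. Over all tested probes the shares lay between 46.2% and 52.7% on the 8 arrays. Quantile normalization gives every array the same distribution and so largely sets those all-probe shares. Whether the members moved more than other probes of like signal was not tested. The median deviation of the members was 0.24 on GnRH replicate 3 and -0.10 on vehicle replicate 3, on the log2 scale. In complex V 14 of 15 probes lay above their group mean on GnRH replicate 3 and 13 of 15 on vehicle replicate 2. Of complex IV 9 of 15 lay above it on GnRH replicate 3 and 8 of 15 on vehicle replicate 2. By these deviations both groups held an array with high and one with low member signals, and what moved with these arrays was not tested. The median log2 signal of the members was likewise highest on GnRH replicate 3, at 7.53, and lowest on vehicle replicate 3, at 7.07. On GnRH replicate 4 it was 7.35, against 7.29 and 7.17 on GnRH replicates 1 and 2. On vehicle replicate 2 it was 7.35, against 7.42 and 7.40 on vehicle replicates 1 and 4.

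**Figure D4:**
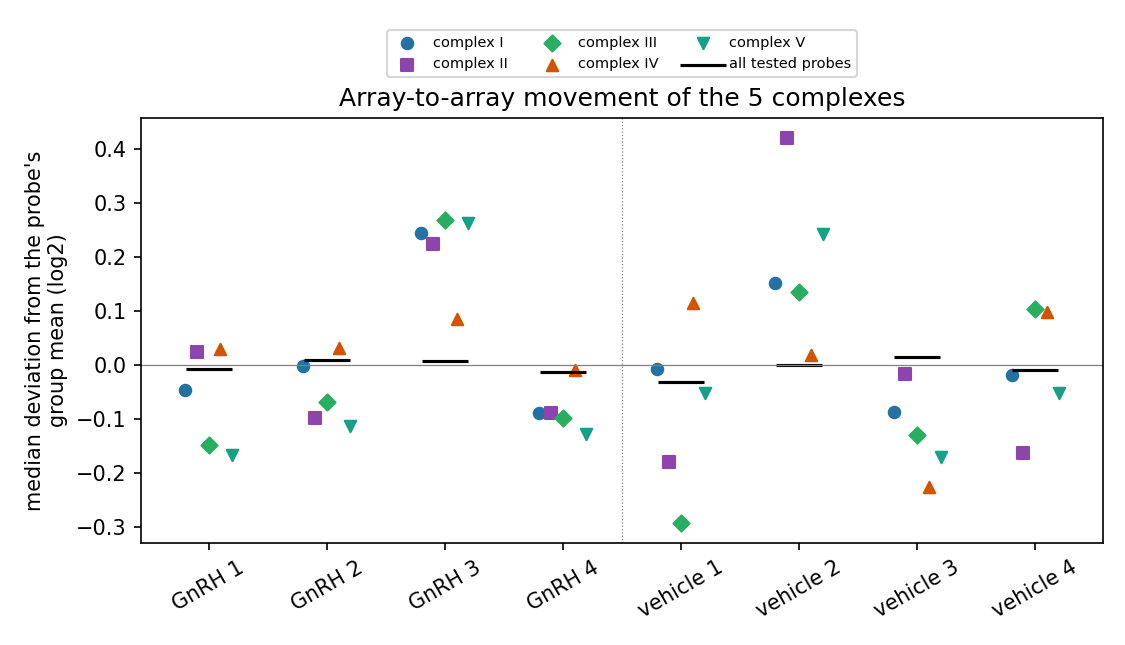
The plot of arrays gives, for each of the 8 arrays, the median over tested probes of the deviation from the probe's own group mean (log2 scale, vertical axis), by complex, with a black bar for all 11318 tested probes. All 5 complexes lie above 0 on GnRH 3 and vehicle 2 and below 0 on GnRH 4 and vehicle 3. The bars stay between -0.03 and 0.02, which quantile normalization largely sets.

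The within-group SD of the members was 0.31 at the median, beside 0.26 over all tested probes. It was higher on the vehicle arrays than on the GnRH arrays for 61 of the 87 probes (70.1%), as for 69.4% of all tested probes. The median SD of the members was 0.25 on the GnRH arrays and 0.32 on the vehicle arrays.

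A list of other genes of the pathway held electron carriers, assembly factors, transporters and regulators of mitochondrial transcription. Of its 58 genes 51 were on the array and 44 were tested, with 59 probes. None was called higher or lower over all tested probes (limma), 26 probes had a change above 0 and 33 below it, and the median change was -0.04. At an unadjusted p below 0.05 there was 1 probe, higher, of Etfdh, which passes electrons from fatty acid oxidation to ubiquinone, at 0.72 ± 0.26 (limma adjusted p = 1.00). That is 1 of 59 probes, where 2.91% of all tested probes reached this p in either direction. A second Etfdh probe was above background on no array. Cycs, cytochrome c itself, had a probe at -0.39 ± 0.19 and Atpaf2, an assembly factor of the ATP synthase head, stood at -0.43 ± 0.22, with adjusted p-values of 1.00 for each (limma). Their other tested probes stood at -0.10 ± 0.14 for Cycs and -0.14 ± 0.16 for Atpaf2. The RNA of the pull-down target, Elavl1, stood at -0.25 ± 0.13.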

How the data were processed

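RNA pulled down with an ELAVL1 antibody was measured on 8 bead arrays, 4 GnRH and 4 vehicle, grouped by sample title. Per the file headers, the authors deposited for each probe a linear bead signal intensity, not normalized, beside its detection p-value. A second deposited table holds the authors' processed intensity values. The sources used here do not give how these were made, the scanner software or the genome build. All deposited columns belonged to these samples.

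The neqc function (limma 3.58.1, R 4.3.3) turned the deposited intensity values into log2 signals: normexp background correction using the detection p-values, an offset of 16, then quantile normalization. Quantile normalization removes differences in total yield. Tests used lmFit and eBayes with no block, on probes whose detection p was below 0.05 on 4 or more arrays, with Benjamini-Hochberg adjustment over all of these. The fit was tested on simulated data. Symbols came from the platform annotation; updating them through RefSeq changed no member.

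Members and lists were chosen with earlier results of these data known. Genes named were, per complex, the 3 lowest p and the 2 highest signals, core subunits, isoform pairs, genes of the rule that are no subunit, undetected genes, and 3 genes of the related list. Atp5d, Atp5g1, Atp5g2, Atp5j, Ndufs4, Ndufb7 and the markers Cga and Chga were named after their values were seen. Alternatives covered background correction, normalization, the authors' processed values, the filter, the variance model, array weights, a replicate block, sample number, membership, gene means and leaving out each array.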

Additional observations from a re-analysis of the deposited data

Results flagged for a closer look

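Dixon's test at its 95% critical value, applied to 102 groups of 4 arrays for the named members and the medians of the complexes, set 4 values apart, and chance sets about 1 in 20 groups apart. For Ndufaf4, a complex I assembly factor, GnRH replicate 4 had a normalized log2 signal of 7.84, against 8.47 to 8.52 on the other GnRH arrays. For Atp5g3, vehicle replicate 2 had 12.93, against 12.35 to 12.45 on the other vehicle arrays. The median log2 signal of the tested complex I probes was 6.66 on vehicle replicate 3, against 7.01 to 7.08 on the other vehicle arrays. That of complex IV was 7.33 on vehicle replicate 3, against 7.74 to 7.79 on the other vehicle arrays. Such a median is the value of the middle-ranked probe. The median deviation of the probes from their group means on vehicle replicate 3 was -0.09 for complex I and -0.22 for complex IV.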

How the results depend on the processing

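No member was called under any of the 23 alternatives, and the lowest adjusted p of a member was 0.120, for Cox8a with array weights (limma), a setting under which 21.3% of all tested probes had an unadjusted p below 0.05. In 9 of the 23 at least 1 member had an unadjusted p below 0.05. The number of probes called over the whole array was 30, 14 with no filter on dim probes, 50 with array weights and between 17 and 27 when 1 array was left out, with 17 without vehicle replicate 3. Without between-array normalization the median change was 0.16 over all members, 0.16 for complex I and 0.17 for complex IV, beside 0.11 for all tested probes. Under the remaining alternatives that kept all arrays, no median moved by more than the array-to-array spread of its probes. With the replicate number as a block 43 probes were called, 0 of them members. The median changes could not differ from those without it, as each number has 1 array of each group. At an unadjusted p below 0.05 (limma) 1 member was then higher and 1 lower. Over all tested probes 5.27% reached this p in either direction. Deviations from the group means correlated at 0.72, -0.23, 0.26 and 0.65 between same-numbered arrays 1 to 4 and at -0.58 to 0.58 between arrays of different number. Numbers 1 and 4 gave the 2 highest of these correlations, but number 2 was below 0 and vehicle replicate 2 correlated best with GnRH replicate 3, so the numbers were not taken to pair the arrays. Leaving out 1 array took the median over all members from -0.03 to 0.08. The fitted changes of single members moved by less than the spread between arrays in 1023 of 1029 recomputed values for named probes. Many of these values could not move. The filter, the variance model, the replicate block, sample number and updated symbols leave a probe's fitted change as it was. Dim probes near background, such as those of Ndufb6, Ndufb7, Cox7a1 and Atp5e, limit what can be read of these genes.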
